A study of Mus musculus with 12 samples.

Results

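The Rhox cluster is a run of X-linked homeobox genes, and it was examined here for H3K9me3 and H3K27me3, histone marks of silenced chromatin. Members were all genes of the deposited enrichment table whose names start with Rhox. There were 30 such genes among the 952 X-linked genes listed, and they lie between positions 34753800 and 35483143 of X in mm9, a span of 729 kb. Of the 30, 10 had a value in all 8 chromatin immunoprecipitation (ChIP-seq) libraries: Rhox1, Rhox2f, Rhox2g, Rhox2h, Rhox6, Rhox8, Rhox10, Rhox11, Rhox12 and Rhox13. Rhox2d had values in 1 genotype of 1 cell type, and 19 had none.

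The cells were female epiblast stem cells (EpiSCs) of stage E6.5 and mouse embryonic fibroblasts (MEFs) of stage E13.5. They were either Smchd1 +/+ (WT) or Smchd1 MD1/MD1 (MD1), and both genotypes were Xist deltaA/+, so the controls carried the Xist allele as well. By the labels they come from a cross of C57BL6/J with an F1 hybrid of JF1 and C57BL6/J. Each mark was measured in 1 library per genotype and cell type, beside 4 input libraries, which makes 12 samples in 12 groups. No difference below therefore has a replicate check, no p-value was computed, and cultures or animals cannot be told apart from genotype or cell type. The labels do not say how many embryos or lines stand behind a library.

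Rhox genes encode homeodomain transcription factors that are known mainly from the testis, ovary and placenta, and most are silent in cells of the embryo proper and in somatic tissue. H3K9me3 is bound by HP1 proteins and is typical of repeat-rich, permanently silent chromatin, whereas H3K27me3 is laid down by the Polycomb complex PRC2 and spreads over the inactive X after Xist coats it. SmcHD1 is a chromosomal protein of the SMC family that gathers on the inactive X and is needed to keep many of its genes silent, and MD1 is a loss-of-function allele of its gene. The A repeat, which the deltaA allele lacks, is the part of Xist RNA needed for silencing.

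The genes without values were largely numbered copies of Rhox2, Rhox3 and Rhox4. The table lists 8 copies of Rhox2, of which 3 had all 8 values, 6 copies of Rhox3 and 7 of Rhox4, of which none had. Rhox7a and Rhox9 were also without values, and Rhox5 is not analysed here. By the usual numbering the alpha group (Rhox1 to Rhox4) had values for 4 of 22 genes, the beta group (Rhox5 to Rhox9) for 2 of 4, and the gamma group (Rhox10 to Rhox13) for 4 of 4. Without any value were 63.3% of Rhox genes, against 19.3% of all genes in the table. Gene length did not separate the Rhox genes with values (2803 to 9127 bases) from those without (2674 to 11342 bases), since the ranges overlap. Values of the Rhox2 copies are uncertain, because the counting could have split or dropped reads that match several copies, and no source used here says how such reads were treated.

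Promoter sequences are shown for how alike the Rhox2 copies are and for where these genes carry CpG sites, the targets of DNA methylation. RefSeq sequences of the 250 bases before the start were matched by symbol for 24 of the 30 Rhox genes, 7 of them with values in all libraries, and their coordinates are in GRCm38.p6. They are printed 5′ to 3′ on the gene's own strand with each CG in capitals, first the alpha genes Rhox1 (chrX:37222259-37222508, minus strand), Rhox2g (chrX:37643471-37643720, minus) and Rhox2h (chrX:37673278-37673527, minus), then the gamma genes Rhox11 (chrX:38085140-38085389, minus) and Rhox13 (chrX:38120590-38120839, plus).
Rhox1: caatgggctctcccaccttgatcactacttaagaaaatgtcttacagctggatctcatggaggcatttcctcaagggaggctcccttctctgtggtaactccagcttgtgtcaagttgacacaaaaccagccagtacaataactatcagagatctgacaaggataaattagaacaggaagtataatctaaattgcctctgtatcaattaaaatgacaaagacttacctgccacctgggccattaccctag
Rhox2g: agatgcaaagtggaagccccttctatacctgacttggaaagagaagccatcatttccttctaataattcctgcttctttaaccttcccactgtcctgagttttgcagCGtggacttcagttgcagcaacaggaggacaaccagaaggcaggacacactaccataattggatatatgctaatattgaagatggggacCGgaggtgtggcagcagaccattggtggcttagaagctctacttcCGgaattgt
Rhox2h: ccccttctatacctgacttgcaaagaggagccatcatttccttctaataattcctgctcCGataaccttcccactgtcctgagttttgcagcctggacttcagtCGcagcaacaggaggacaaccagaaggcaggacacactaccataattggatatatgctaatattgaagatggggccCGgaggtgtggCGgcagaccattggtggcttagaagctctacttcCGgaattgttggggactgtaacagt
Rhox11: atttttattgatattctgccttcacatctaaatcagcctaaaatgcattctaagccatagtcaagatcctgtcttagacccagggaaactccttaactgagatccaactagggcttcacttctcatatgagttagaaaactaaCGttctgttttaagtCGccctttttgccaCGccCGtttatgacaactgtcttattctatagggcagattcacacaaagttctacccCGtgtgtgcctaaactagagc
Rhox13: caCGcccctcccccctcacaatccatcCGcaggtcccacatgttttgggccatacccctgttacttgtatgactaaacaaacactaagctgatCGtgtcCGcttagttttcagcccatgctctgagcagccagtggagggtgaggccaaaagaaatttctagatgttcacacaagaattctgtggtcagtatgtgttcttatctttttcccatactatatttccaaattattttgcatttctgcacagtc
The Rhox1 window holds 0 CG, Rhox2g 3, Rhox2h 5, Rhox11 5 and Rhox13 4. Rhox2g and Rhox2h carry the same bases at 225 of the 234 positions at which their windows overlap (96.2%), and over such overlaps the 21 pairs among 7 Rhox2 copies were 94.2% to 100% identical. Aligned over their full length, the windows of Rhox2 copies matched at a median of 85.9% of positions (71.3% to 99.6%), those of Rhox4 copies at 82.8% (60.5% to 96.4%) and those of Rhox3 copies at 50.9% (48.2% to 100%). Differently numbered Rhox genes matched at a median of 49.7% (43.6% to 56.3%). Full-length matching is lowered where annotated starts are shifted, and overlaps were aligned for Rhox2 copies only. Rhox3f and Rhox3g, for example, matched at 50.2%, although the Rhox3g window opens with nearly the same bases that end the Rhox3f window. The Rhox3 median therefore does not show how alike the Rhox3 copies are. The 24 Rhox windows held a median of 4.5 CG, with the most, 8, at the gamma gene Rhox10, against a median of 5 on X and 6 over all promoters. None of the 24 had a ratio of observed to expected CG above 0.6. By comparison, 34.0% of all 32851 promoters in the table and 26.0% of the 1223 on X were above that ratio. This is a description of the letters, and DNA methylation was not measured.

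Enrichment is given as the authors' log2 value of ChIP over input per gene, so 0 means no enrichment and 1 means 2-fold. No source used here gives the constant by which each library was scaled, or says which of the X chromosomes the reads came from. The values behave as ratios of whole-number pairs, a ChIP and an input count per gene, and the smallest such pairs were used for 95% counting intervals. These intervals cover counting error only. For the Rhox genes the input pairs were 4 to 113. The ChIP pairs of H3K27me3 were 31 to 745 and those of H3K9me3 were 10 to 163 in WT EpiSCs, 1 to 15 in MD1 EpiSCs, 2 to 115 in WT MEFs and 1 to 75 in MD1 MEFs. Over all genes the median H3K9me3 pair was 70, 13, 53 and 29 in the same order, so MD1 EpiSCs have the least precise H3K9me3 values. Smchd1 is autosomal, and the genotypes are as labelled, without a check from the data.

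**Figure D1:**
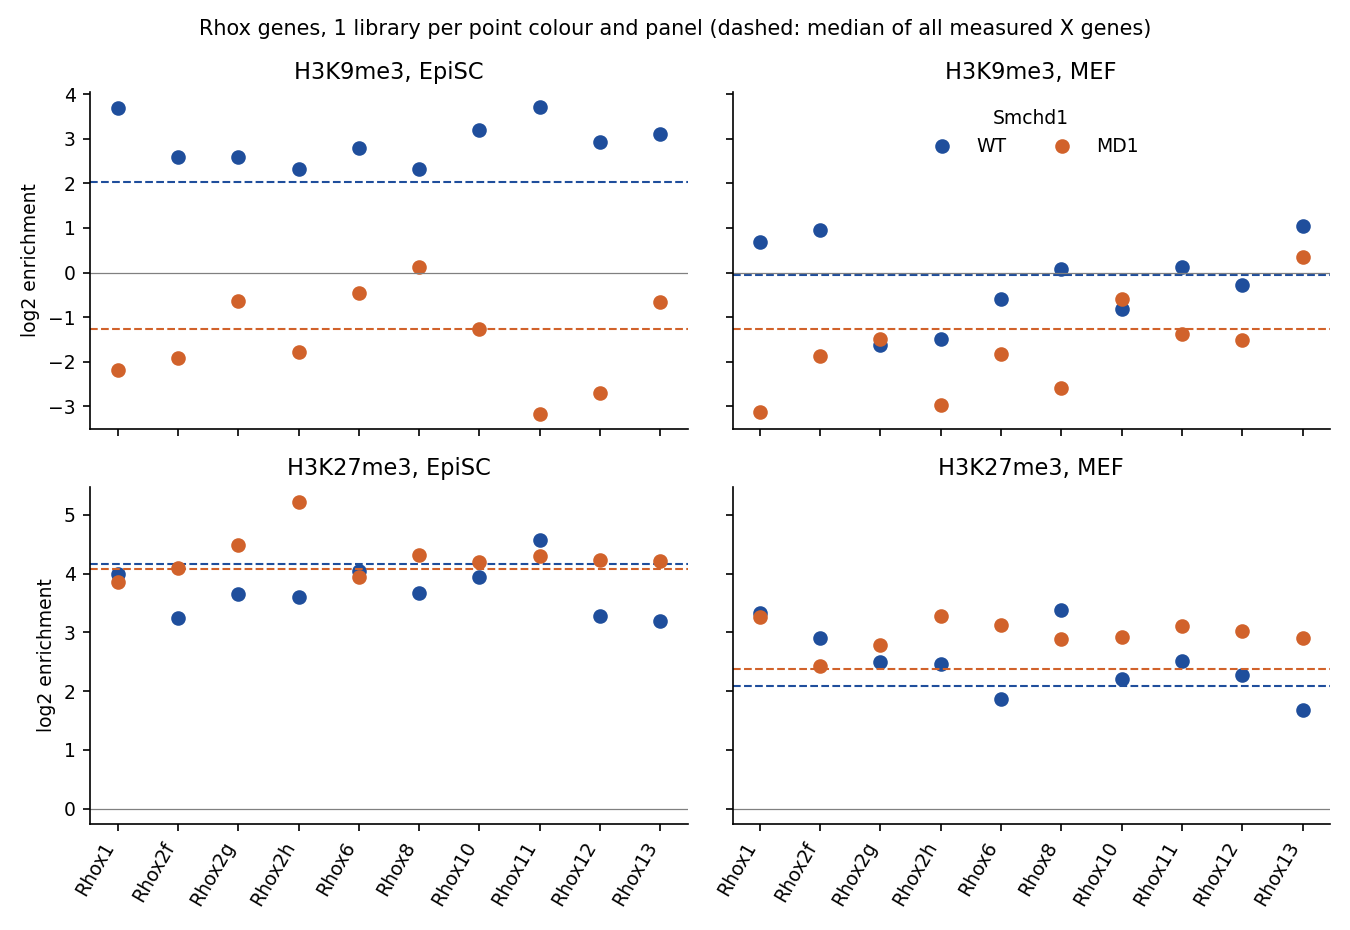
log2 ChIP over input (vertical axis) of the 10 measured Rhox genes in order along X (horizontal axis), for H3K9me3 (top) and H3K27me3 (bottom) in EpiSCs (left) and MEFs (right); points are single libraries of WT and MD1 cells and dashed lines are the medians of all measured genes in the same library. In EpiSCs all 10 WT points of H3K9me3 lie between 2.33 and 3.70 and all MD1 points at or below 0.12, while H3K27me3 is at least 1.68 in every library.

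In WT EpiSCs all 10 Rhox genes carried H3K9me3 well above input. The lowest value was 2.33 (Rhox2h and Rhox8), the median 2.86 and the highest 3.70 (Rhox1 and Rhox11), against a median of 2.03 over all 719 genes measured. The 4 gamma genes (2.93 to 3.70) all lay above the 2 beta genes (2.33 and 2.80), and the alpha genes spanned both. All 10 lay above the median of all genes. All 10 were at least 2-fold over input, as were 64.0% of all genes. The Rhox genes were also closer together than genes in general, with an SD of 0.50 over the members against 1.76 over all genes. Neither trait was particular to the cluster. The 18 genes starting within 1 Mb before it had a median of 3.43 (2.41 to 3.79). The 8 starting within 1 Mb after it had a median of 3.74 (2.95 to 4.30). The Rhox median was below both. H3K27me3 was high in the same cells, at a median of 3.66 (3.19 to 4.57), but below the median of 4.17 over all genes for 9 of the 10. Rhox11, a gene of the gamma group, was the exception at 4.57.

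H3K9me3 on the cluster was far lower in MD1 EpiSCs than in WT EpiSCs. All 10 genes were at least 2-fold lower and 0 at least 2-fold higher, where 82.9% of all 708 genes with values in both were lower and 1.13% higher. The median difference (MD1 minus WT) was −4.29 over the Rhox genes, a 19.6-fold lower enrichment, and −2.98 over all genes. In MD1 EpiSCs 0 of the 10 were at least 2-fold over input, as were 5.30% of all genes.

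In the alpha group, Rhox1, the first gene of the cluster, stood at 3.70 in WT and −2.19 in MD1, a difference of −5.89 (95% counting interval −7.57 to −4.22). The Rhox2 copies stood close together in WT, at 2.60 (Rhox2f), 2.59 (Rhox2g) and 2.33 (Rhox2h), and at −1.92, −0.63 and −1.79 in MD1. Their differences were −4.52 (−7.79 to −1.26), −3.22 (−5.68 to −0.77) and −4.11 (−7.19 to −1.04). The WT and MD1 values of the 4 alpha genes did not overlap, but the intervals of the Rhox2 copies are wide because their MD1 ChIP pairs were very small, down to 1 for Rhox2f and Rhox2h.

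In the beta group, Rhox6, known from the placenta, stood at 2.80 in WT and −0.46 in MD1. Its difference of −3.27 had an interval that reaches 0 (−6.57 to 0.04), with a MD1 pair of 1. The input of that smallest pair was 4, against 14 in WT. If the real counts are a multiple of this pair, the interval is narrower and may exclude 0. Rhox8, known from the somatic cells of the testis and ovary, stood at 2.33 and 0.12. Its difference of −2.21 (−3.54 to −0.88), 4.63-fold, was the smallest of the 10. Rhox8 was the only Rhox gene whose MD1 value was not below input.

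The gamma group held the 2 lowest MD1 values of the cluster, at Rhox11 and Rhox12. Rhox10, which acts in the founding of spermatogonial stem cells, stood at 3.20 in WT and −1.27 in MD1, a difference of −4.47 (−5.98 to −2.95). Rhox11 stood at 3.70 and −3.16, a difference of −6.87 (−9.82 to −3.92), the largest of the 10, and its MD1 pair was 1. Only 1.63% of all genes had less H3K9me3 than Rhox11 in that library. Rhox12 stood at 2.93 and −2.71, a difference of −5.64 (−7.37 to −3.90), and Rhox13, a germ-cell gene, at 3.11 and −0.67, a difference of −3.78 (−4.67 to −2.88). WT and MD1 values thus did not overlap in any group, and 9 of the 10 counting intervals excluded 0. Among genes within 1 Mb of the cluster, WT values (2.41 or more) and MD1 values (1.03 or less) did not overlap either. The intervals of 23 of 24 such genes excluded 0. So neither the non-overlap nor the intervals were particular to the Rhox genes. The share over all genes was counted for neither. The group medians of the difference were −4.32 (alpha), −2.74 (beta) and −5.05 (gamma).

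Much of this difference was shared with the rest of the X. With each difference taken relative to the median of the other genes, −2.96, the Rhox median was −1.33 and 6 of 10 genes were at least 2-fold lower. Rhox8 then lay on the other side of 0, at 0.75. Relative to that median, calls over all genes split into 47.5% lower and the rest higher, against 98.7% lower as deposited. Centring puts the middle of all genes near 0, so a near-even split is in large part set by it.

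**Figure D2:**
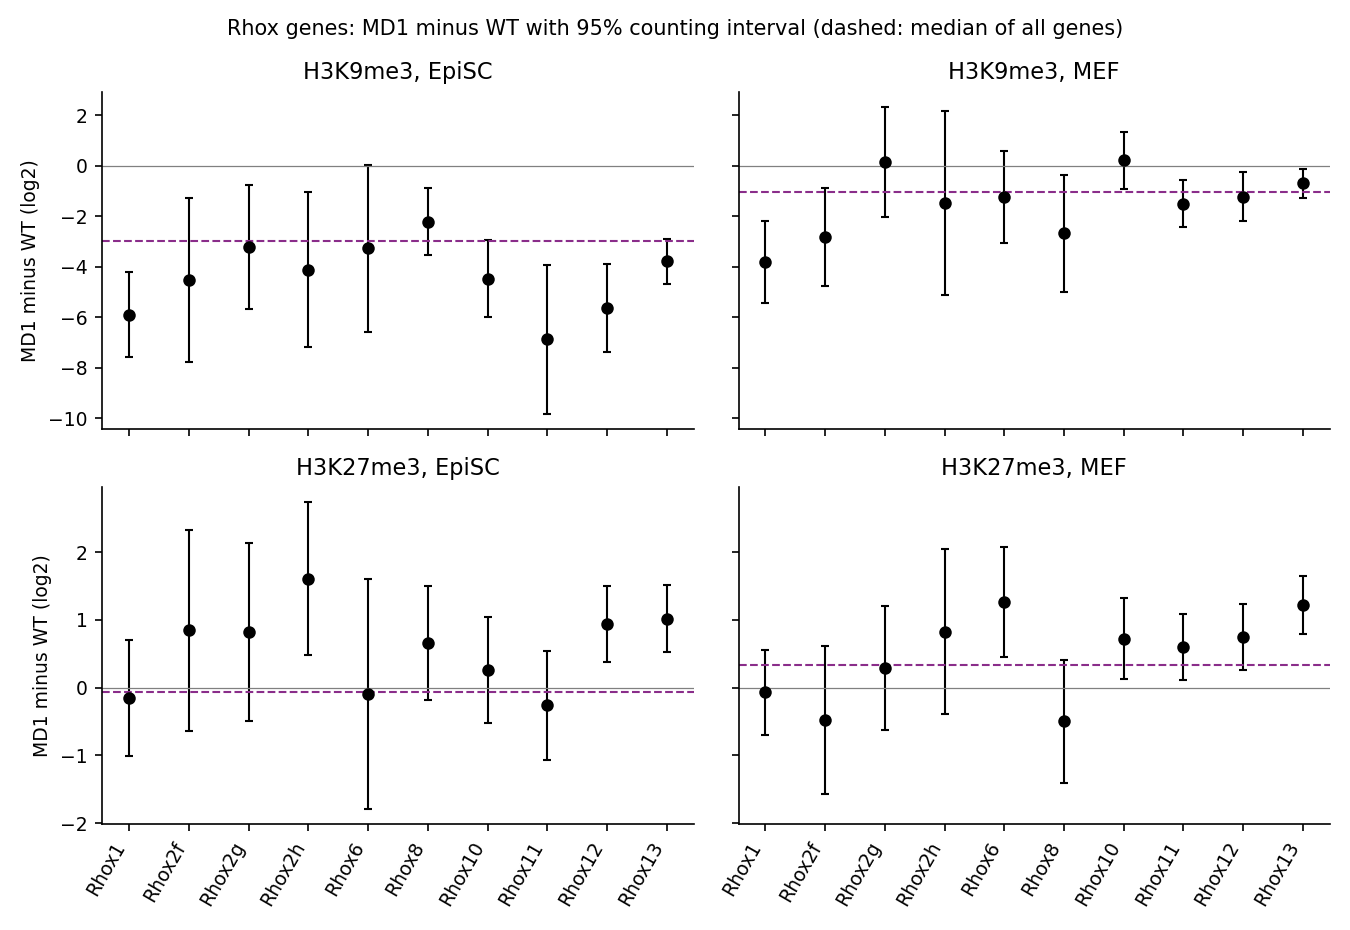
Difference in log2 enrichment, MD1 minus WT (vertical axis), of each measured Rhox gene in order along X (horizontal axis), for H3K9me3 (top) and H3K27me3 (bottom) in EpiSCs (left) and MEFs (right); bars are 95% counting intervals and the dashed line is the median of all genes. H3K9me3 in EpiSCs lies below 0 at all 10 genes, while in MEFs it lies close to 0 at Rhox2g (0.15) and Rhox10 (0.22).

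In WT MEFs H3K9me3 on the cluster was near input and the genes were spread out. The median was −0.10 (−1.63 to 1.04), against −0.05 over all genes, and 5 of the 10 lay above that. Rhox13 at 1.04 was the only one at least 2-fold over input, as were 20.3% of all genes, with Rhox2f at 0.96 and Rhox1 at 0.68 next. Rhox2g at −1.63 and Rhox2h at −1.50 were the lowest, with 2.95% and 3.88% of all genes below them. The 3 Rhox2 copies, close together in WT EpiSCs, thus stood apart here, with ChIP pairs as low as 2.

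The lower H3K9me3 in MD1 cells was seen in MEFs at some Rhox genes and not at others. At least 2-fold lower were 7 of 10, where 51.3% of all 739 genes were, and 0 were at least 2-fold higher, where 0.677% were. The median difference was −1.35, a 2.56-fold lower enrichment, against −1.02 over all genes. Relative to the other genes' median of −1.02 the Rhox median was −0.33, with 3 genes at least 2-fold lower and 2 (Rhox2g and Rhox10) at least 2-fold higher. At a threshold of 3-fold on the deposited values, 3 were lower.

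The 3 largest differences were at Rhox1, Rhox2f and Rhox8, from the alpha and beta groups. Rhox1 stood at 0.68 in WT and −3.13 in MD1, a difference of −3.81 (−5.43 to −2.18) or 14.0-fold. Rhox2f stood at 0.96 and −1.87, a difference of −2.83 (−4.76 to −0.90), and Rhox8 at 0.08 and −2.59, a difference of −2.67 (−4.99 to −0.35). These intervals all excluded 0, but those of Rhox2f and Rhox8 hold the median difference of all genes, −1.02. Rhox2h (−1.50 and −2.97) and Rhox6 (−0.58 and −1.82) were lower in MD1 by less than their counting error, at −1.47 (−5.11 to 2.17) and −1.24 (−3.05 to 0.57). Rhox2g, at −1.63 in WT and −1.48 in MD1, differed by 0.15 (−2.02 to 2.31), so no difference was detectable at this depth.

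The gamma genes had more H3K9me3 in MD1 MEFs than most of the others, by the values alone. Rhox10 stood at −0.82 in WT and −0.60 in MD1, a difference of 0.22 (−0.90 to 1.33). Rhox11 stood at 0.13 and −1.37, a difference of −1.50 (−2.42 to −0.58), and Rhox12 at −0.28 and −1.51, a difference of −1.23 (−2.19 to −0.26). Rhox13 stood at 1.04 and 0.34, a difference of −0.69 (−1.26 to −0.13). It was the only Rhox gene above input in MD1 MEFs, and 92.8% of all genes lay below it there. No Rhox gene was at least 2-fold over input in MD1 MEFs, as were 2.92% of all genes. The 4 gamma genes ranged from −1.51 to 0.34 and the 4 alpha genes from −3.13 to −1.48, so the groups overlap only at Rhox12 and Rhox2g. Rhox2d, measured in MD1 MEFs alone, stood at −2.53 and lay within the alpha range. The group medians of the difference were −2.15 (alpha), −1.96 (beta) and −0.96 (gamma). Whether the groups differ was not tested.

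Beside the gamma genes lie the only genes inside the cluster that are not named Rhox, the pseudogenes Btg1-ps1 (X, 35367085 to 35371992) and Btg1-ps2 (X, 35391376 to 35396291). They were named after their values were seen. In MEFs their H3K9me3 was nearly the same in both genotypes, at 0.29 in WT and 0.30 in MD1 for Btg1-ps1 and at −0.01 in both for Btg1-ps2. In EpiSCs both were lower in MD1, from 3.09 to 0.84 and from 2.19 to −0.25.

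No Rhox gene had H3K27me3 at least 2-fold lower in MD1 than in WT cells, in EpiSCs or in MEFs. All 10 Rhox genes were more than 2-fold over input in each of the 4 H3K27me3 libraries, as were most measured genes. The medians of all genes were 4.17 and 4.07 in WT and MD1 EpiSCs, and 2.09 and 2.38 in WT and MD1 MEFs. In MD1 EpiSCs the Rhox median was 4.22 (3.85 to 5.21), with 8 of 10 Rhox genes above the median of all genes. In WT EpiSCs 1 of 10 had been above it. The median difference was 0.74, a 1.67-fold higher enrichment, against −0.07 over all genes. At least 2-fold higher were 2 of 10, where 22.7% of all genes were, and 0 were at least 2-fold lower, where 11.3% were. The share of Rhox genes called higher is thus near that of the X as a whole.

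The 2 genes were Rhox2h, at 3.60 in WT and 5.21 in MD1, and Rhox13, at 3.19 and 4.21. Rhox2h differed by 1.61 (0.49 to 2.74) or 3.06-fold, and in MD1 EpiSCs 99.5% of all genes lay below it. Rhox13 differed by 1.02 (0.52 to 1.52), just past the threshold. At a threshold of 3-fold only Rhox2h was higher. Rhox12, at 3.29 and 4.23, differed by 0.94 (0.39 to 1.50) and was the last whose interval excluded 0.

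The remaining 7 genes differed by less than their counting error. Rhox2f (3.24 in WT and 4.09 in MD1), Rhox2g (3.66 and 4.48) and Rhox8 (3.66 and 4.33) had differences of 0.85 (−0.64 to 2.33), 0.82 (−0.50 to 2.14) and 0.66 (−0.18 to 1.50). Rhox10 (3.94 and 4.20) differed by 0.26 (−0.52 to 1.05). Rhox1 (4.0 and 3.85), Rhox6 (4.04 and 3.95) and Rhox11 (4.57 and 4.31), the 3 highest in WT, differed by −0.15 (−1.01 to 0.71), −0.09 (−1.79 to 1.60) and −0.26 (−1.06 to 0.54). The genes low in WT were thus the ones with higher values in MD1, and the SD over the members was 0.43 in WT and 0.37 in MD1. A gene's WT value enters its own difference, so this order is a description only.

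In MD1 MEFs the Rhox genes carried H3K27me3 at closely similar levels. The median was 2.47 (1.68 to 3.38) in WT and 2.97 (2.42 to 3.28) in MD1, where all 10 genes lay above the median of all genes, 2.38. The SD over the members was 0.25 in MD1 MEFs, against 1.83 over all genes. Rhox2d stood at 2.68 in that library. The median difference was 0.66, a 1.58-fold higher enrichment, against 0.34 over all genes. None of the Rhox genes (0 of 10) was at least 2-fold lower, where 24.0% of all genes were, and 2 were at least 2-fold higher, where 22.3% were. Relative to the median of the other genes, or at a threshold of 3-fold, 0 were higher.

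The counting interval of the difference lay above 0 at Rhox6 and the 4 gamma genes. The share over all genes was not counted. The intervals of Rhox10, Rhox11 and Rhox12 hold the median difference of all genes, 0.34. Rhox6 stood at 1.86 in WT and 3.13 in MD1, a difference of 1.26 (0.45 to 2.08), and Rhox13 at 1.68 and 2.90, a difference of 1.22 (0.79 to 1.65). These 2 had the lowest WT values. Rhox10 (2.20 and 2.93), Rhox11 (2.51 and 3.11) and Rhox12 (2.27 and 3.02) differed by 0.72 (0.12 to 1.32), 0.60 (0.11 to 1.09) and 0.75 (0.27 to 1.23). Rhox2h (2.46 and 3.28) differed by 0.83, as much as these, but with an interval that holds 0 (−0.39 to 2.04).

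The alpha genes and Rhox8 did not differ beyond counting error in H3K27me3 in MEFs. Rhox1 stood at 3.34 in WT and 3.27 in MD1 (difference −0.07, interval −0.70 to 0.56), and Rhox8 at 3.38 and 2.89 (−0.50, −1.40 to 0.40). In WT MEFs 98.9% and 99.2% of all genes lay below these genes. Rhox2f (2.90 and 2.42) and Rhox2g (2.49 and 2.79) differed by −0.47 (−1.56 to 0.62) and 0.29 (−0.62 to 1.20). Group medians were 0.11 (alpha), 0.38 (beta) and 0.74 (gamma). Rhox1, Rhox2f and Rhox8, with the 3 largest H3K9me3 differences in MEFs, were the 3 genes with H3K27me3 below the WT value. Both marks were divided by the same input, so their differences at a gene are not independent.

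**Figure D3:**
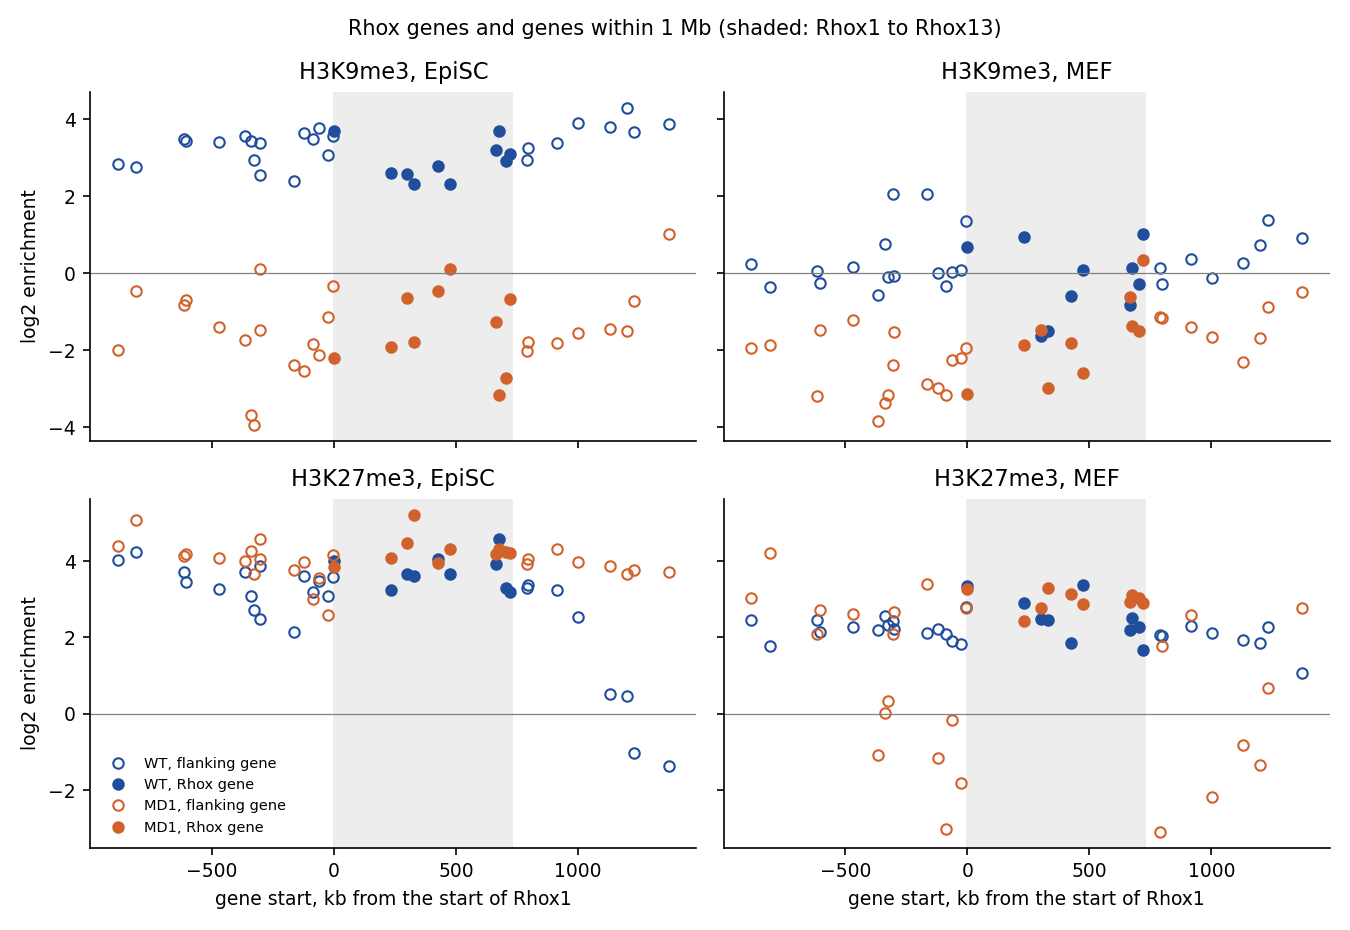
log2 ChIP over input (vertical axis) of H3K9me3 (top) and H3K27me3 (bottom) in EpiSCs (left) and MEFs (right), by the distance in kb of each gene's lowest coordinate from that of Rhox1 (horizontal axis); filled points are Rhox genes, open points are genes within 1 Mb, each point is 1 gene in 1 library and the shaded span is the cluster. In H3K27me3 of MD1 MEFs the Rhox genes lie between 2.42 and 3.28, while the neighbouring genes run from −3.09 to 4.22.

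The genes around the cluster had a wider range of H3K27me3 in MD1 MEFs than the Rhox genes. Of the genes starting within 1 Mb of the cluster, 26 had values in both MEF genotypes. Of these, 14 were at least 2-fold lower in MD1, where 24.0% of all genes were, and 3 at least 2-fold higher, where 22.3% were. The median difference of these neighbours was −1.78. With the window widened to 2 Mb, which adds 3 genes, the median difference was −0.35. In MD1 MEFs the 18 genes before the cluster had a median of 1.22 (−3.02 to 4.22) and the 8 after it a median of −0.07 (−3.09 to 2.76), against 2.97 for the Rhox genes. The ranges overlap, and the difference between Rhox genes and their neighbours was not tested.

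The nearest neighbours differed from each other. Zbtb33, which encodes the methyl-CpG binding protein Kaiso and lies 59.8 kb after Rhox13, stood at 2.07 in WT MEFs and −3.09 in MD1 MEFs for H3K27me3. Tmem255a overlaps it and stood at 2.03 and 1.79, and Atp1b4, 186 kb away, at 2.31 and 2.58. On the other side Gm9, 2.76 kb before Rhox1, stood at 2.81 and 2.77, almost as the Rhox genes did. Ndufa1, a subunit of mitochondrial complex I 22.6 kb away, stood at 1.83 and −1.80, and Akap14, 45.0 kb away, at 1.92 and −0.17. So 3 of these 6 genes were at least 2-fold lower in MD1 and 3 were not.

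For H3K9me3 the same neighbours were lower in MD1 cells like the Rhox genes. In EpiSCs 24 of 24 genes within 1 Mb were at least 2-fold lower, where 82.9% of all genes were. The neighbours' median was −4.90, against −2.98 over all genes. In MEFs 25 of 26 neighbours were at least 2-fold lower, where 7 of 10 Rhox genes and 51.3% of all genes were. The neighbours' median was −2.35 there, against −1.35 for the Rhox genes and −1.02 over all genes. At the 6 nearest genes the MEF difference ran from −3.31 (Gm9) to −0.89 (Tmem255a).

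In EpiSCs the H3K27me3 difference of the genes within 1 Mb, at a median of 0.78 over 24 genes, was close to the 0.74 of the Rhox genes. The 2 sides were unlike, however. The 16 genes before the cluster had a median difference of 0.50, with 3 at least 2-fold higher. The 8 after it had a median of 2.32, with 6 at least 2-fold higher. Farther after the cluster, 4 genes named after their values were seen had little H3K27me3 in WT EpiSCs: Cul4b (0.51), Mcts1 (0.46), C1galt1c1 (−1.02) and 6030498E09Rik (−1.37). All 10 Rhox genes lay above these, at 3.19 or more. In MD1 EpiSCs the 4 genes stood between 3.65 and 3.88, below the Rhox median of 4.22.

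H3K9me3 on the cluster was lower in WT MEFs than in WT EpiSCs at all 10 Rhox genes by at least 2-fold. The same held for 68.2% of all 711 genes with values in both. The median difference (MEF minus EpiSC) was −3.30, or 9.83-fold, with a range of −4.21 to −1.64, against −1.90 over all genes. Relative to the other genes it was −1.43. H3K27me3 was lower by a median of −1.16 (−2.18 to −0.28), or 2.23-fold, against −1.88 over all genes. At least 2-fold lower were 7 of 10, where 78.2% of all genes were. Relative to the other genes the direction for H3K27me3 was the opposite, at 0.72. The scaling of the libraries and the cell type cannot be told apart here.

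In MD1 cells the H3K9me3 of the cluster was similar in both cell types by the median, at −1.53 in EpiSCs and −1.66 in MEFs, but single genes differed both ways. At least 2-fold lower in MEFs were 3 of 10, where 19.0% of all 726 genes were, and 3 were at least 2-fold higher, where 10.3% were. The 3 lower were Rhox8 (−2.71, interval −5.07 to −0.35), Rhox6 (−1.36) and Rhox2h (−1.19), the last pair with intervals that hold 0. The 3 higher were the gamma genes Rhox11 (1.79), Rhox12 (1.20) and Rhox13 (1.01). Only the interval of Rhox13 among them excluded 0 (0.10 to 1.92). H3K27me3 in MD1 cells was lower in MEFs by a median of −1.29 (−1.93 to −0.58), against −1.67 over all genes, with 8 of 10 at least 2-fold lower, where 82.5% of all genes were.

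Other homeobox genes on X gave a mixed picture. Values in all libraries are given here for Cdx4, Hdx and Esx1. H3K9me3 was at least 2-fold lower in MD1 EpiSCs at Hdx (−4.62) and the placental gene Esx1 (−5.76), and not at Cdx4 (0.19), a gene of the caudal family. In MEFs Hdx (−1.07) and Esx1 (−4.67) were again lower and Cdx4 differed by −0.78. H3K27me3 in MEFs was at least 2-fold higher at Hdx (1.49) and Esx1 (2.16), and Cdx4 differed by 0.05. In EpiSCs it was at least 2-fold higher at Hdx (2.06) and at least 2-fold lower at Cdx4 (−1.79), and Esx1 differed by 0.06. Pou3f4 had values in MD1 MEFs alone, and Tgif2lx1 and Tgif2lx2 had none.

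A contrast was offered by the Ssx genes, another X-linked family of duplicated genes known from the germline. In WT EpiSCs the Rhox genes had a median H3K27me3 of 3.66 and the Ssx genes one of −2.60. In MD1 EpiSCs all 6 Ssx genes with values in both were at least 2-fold higher in H3K27me3, at a median difference of 5.73, where the Rhox median was 0.74. The ranges of these differences did not overlap for the 2 families. Their H3K9me3 was lower in MD1 EpiSCs in both, at a median of −2.28 for Ssx and −4.29 for Rhox.

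Over all 8 libraries, the genes most like the Rhox median profile were measured by the root mean square difference in log2 enrichment. Of 688 other genes with all values, Il13ra1 (0.23), a subunit of the interleukin-13 receptor, was nearest, followed by Sept6 (0.26), a septin, Lonrf3 (0.27), Arhgef6 (0.29) and Fndc3c1 (0.29). The first 3 start 1.10, 0.303 and 0.885 Mb before the cluster, while Arhgef6 and Fndc3c1 start 19.7 and 68.9 Mb after its first base. The nearest Rhox gene was Rhox12 (0.45) and the farthest Rhox13 (0.93). Nearer to the profile than any Rhox gene were 26 other genes, so the profile was not particular to the cluster.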

How the data were processed

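The tools named in the submitters' processing notes are BWA, SAMtools and cutadapt, with mm9 as the build and no versions. The values are log2 enrichments, which the authors deposited per X-linked gene and ChIP library, always for both marks of the same cells. The members and lists were chosen with earlier results of these data known. Every Rhox gene with a value was named, with the 3 nearest measured genes on each side, other homeobox genes and the Ssx genes, and the 5 genes most like the Rhox median. A listed homeobox gene is not reported here. Differences were taken between log2 values and counted at 2-fold. Whole-number pairs were searched with a denominator of at most 30000 and a relative tolerance of 1e-12. All values matched, and the procedure was tested on simulated counts. The exact counts were recovered for 83.6% of genes simulated from WT EpiSCs and for 83.0% of those from MD1 MEFs. Real counts may be multiples of these pairs, and the 95% intervals use a normal approximation on the log scale. Coordinates are in mm9 and printed counting from 1. The deposited starts were read as counting from 0, by gene length against a RefSeq table of GRCm38.p6, from which the promoters came. Read so, 346 of 841 genes matched by name had the same length, against 36 with starts counting from 1. Of the 30 Rhox genes, 20 had the same length. Alternatives were centring on the median of other genes, a pseudocount of 0.1 on linear enrichment, an input pair of at least 20, a 3-fold threshold, and windows of 0.5 and 2 Mb. Python 3.11.15, numpy 2.4.6, pandas 2.3.3 and scipy 1.17.1 were used.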

Additional observations from a re-analysis of the deposited data

Results flagged for a closer look

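At 2 Rhox genes the difference in H3K9me3 between genotypes had opposite signs in the 2 cell types. Rhox2g was lower in MD1 EpiSCs (−3.22) and not in MD1 MEFs (0.15), and these differences were 3.37 apart on the log2 scale (counting interval 0.10 to 6.64). Rhox10 was lower in MD1 EpiSCs (−4.47) and not in MD1 MEFs (0.22), 4.68 apart (2.80 to 6.57). Relative to the median of the other genes, Rhox2g differed by −0.27 in EpiSCs and 1.17 in MEFs, 1.44 apart with an interval that holds 0 (−1.84 to 4.71), and Rhox10 by −1.51 and 1.24, 2.75 apart (0.87 to 4.63). As deposited, Rhox11 (5.37 apart), Rhox12 (4.41) and Rhox13 (3.09) also differed between cell types beyond counting error, with the same sign in both. Relative to the median of the other genes they were 3.43, 2.48 and 1.15 apart (0.10 to 2.21 for Rhox13). Rhox13 then had opposite signs, at −0.82 in EpiSCs and 0.33 in MEFs. The share of all genes that differed between cell types beyond counting error was not counted. In both Rhox2g and Rhox10 the MEF difference lay within its own counting error of 0. With 1 library per group, the difference between cell types was not tested over cultures.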

How the results depend on the processing

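Taking differences relative to the median of the other genes changed most. In EpiSCs the median H3K9me3 difference between genotypes became −1.33, 6 genes were at least 2-fold lower, and Rhox8 reversed to 0.75. In MEFs 3 genes were lower and 2 higher in H3K9me3, and 0 were higher in H3K27me3. Between WT cell types the median became −1.43 for H3K9me3 and reversed to 0.72 for H3K27me3. An input pair of at least 20 leaves 5 Rhox genes in EpiSCs, of which 5 were lower in H3K9me3 and 1 higher in H3K27me3. At 3-fold, 3 genes were lower in H3K9me3 in MEFs, 1 was higher in H3K27me3 in EpiSCs and 0 in MEFs. A pseudocount of 0.1 moved no single-gene difference by more than the half-width of its counting interval. It moved no median by more than the median half-width over the Rhox genes. The number of genes lower in H3K9me3 in MEFs went from 7 to 6. Of 104 recomputed single-gene differences, 94 stayed within their counting interval, 9 moved beyond it and 1 reversed, the last 10 all by centring. Of the 94, 24 came from the input setting, which only drops genes, so they could not move. By centring, 30 stayed within their interval. Among the 9 that moved, Rhox13 in H3K9me3 in MEFs crossed 0, from −0.69 to 0.33. Relative to the other genes, 213 genes in all were lower in H3K9me3 in EpiSCs (587 as deposited) and 235 higher (8 as deposited). In MEFs 186 were lower (379) and 63 higher (5). The share of lower calls for H3K27me3 in MEFs was 63.6% (51.8% as deposited). With an input pair of at least 20 the H3K27me3 calls in EpiSCs were 51 lower and 118 higher of 554 genes (80 and 161 of 708 as deposited). Small H3K9me3 pairs in MD1 EpiSCs limit the precision of single genes. No paired analysis was possible because each group holds 1 library and the labels share no replicate numbers.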
